A study of Mus musculus with 8 samples.

Results

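The 10 genes described here are known regulators or markers of epithelial-mesenchymal transition (EMT), followed in 4T1 cells, a mouse mammary carcinoma line, when Etv5 was targeted by RNA interference. They are the transcription factor genes Zeb1, Zeb2, Snai1, Snai2 and Twist1, the mesenchymal marker genes Vim, Cdh2 and Fn1, and the epithelial regulator genes Grhl2 and Esrp1. The 10 were listed by gene symbol, with no threshold on their values, and all 10 were found among the 24787 rows of the deposited table. RNA sequencing covered 8 libraries of cultured cells: 4 carried a control shRNA and have the genotype WT in the labels, and 4 carried an shRNA against Etv5 and are labelled Etv5 knockdown. The library names give each group a single construct name, so each group appears to rest on 1 shRNA. The labels name no clone, no separate cultures and no further allele or treatment, and p-values therefore measure the spread between these libraries, which may be technical.

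EMT is the programme by which epithelial cells loosen their junctions and take on features of migratory mesenchymal cells. The SNAIL, ZEB and TWIST families of transcription factors drive it, in large part by repressing E-cadherin and other epithelial genes through E-box sequences. GRHL2 and ESRP1 act on the epithelial side: GRHL2 activates junction genes and opposes ZEB1, and ESRP1 directs the epithelial pattern of splicing. Carcinoma cells often hold genes of both sides at the same time.

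Values are coverage values, the mean read coverage per base of a gene after scaling to library depth, so levels of different genes can be set side by side per length. Read depth is unknown, and the values summed to between 254792 and 390495 per library. The targeted gene Etv5 had a coverage value of 14.1 ± 1.65 (SD, n = 4) in controls and 11.1 ± 2.52 (SD, n = 4) with the Etv5 shRNA, with overlapping groups and an adjusted p of 0.819 by limma, a linear model fitted across all genes. Without the third Etv5 shRNA library Etv5 was at 12.3 ± 0.962 (SD, n = 3), with a log2 fold change of -0.17 (95% interval -0.42 to 0.07) and an adjusted p of 0.422 by limma. It was called lower with array quality weights (-0.19, adjusted p 0.0392 by limma) and in none of the other 26 alternatives run. The labelled knockdown was thus not resolved at the transcript level in either set of libraries, and 26.8% of the 50-base stretches of the longest coding Etv5 transcript also occur in Gm4798. The third Etv5 shRNA library stood apart, at 93.4 on a first principal component that held 81.9% of the variance, where the next highest was control replicate 3 at 12.8. Its log2(value + 1) relative to the mean of the other 3 libraries of its group had a median of 0.52 in the quartile of tested genes with the shortest transcripts and -1.11 in the quartile with the longest. Control replicate 3 deviated the same way by a smaller amount, at 0.32 and -0.36. Ribosomal protein genes held 21.7% of the summed values in the third Etv5 shRNA library and 7.85% to 11.9% in the other 7. Fold changes are therefore given over 8 libraries and over the 7 without the third Etv5 shRNA library.

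Snai1 and Zeb2 were clearly covered, while their relatives Snai2 and Zeb1 were close to 0. In the controls, Vim was the most covered of the 10 genes, at 1903 ± 165 (SD, n = 4), and ranked 3 among all 24787 rows. Fn1 followed at 211 ± 78.1 and rank 147. Twist1 was at 23.5 ± 2.79, Esrp1 at 17.1 ± 2.04, Snai1 at 12.1 ± 0.827, Grhl2 at 6.59 ± 0.656 and Zeb2 at 2.93 ± 0.611 (SD, n = 4 each). Snai2, at 0.0754 ± 0.0345, and Zeb1, at 0.0425 ± 0.0348, were lower by far, and Cdh2 was listed at 0 in all 8 libraries. From Vim down to Zeb2 no 2 neighbours in this order overlapped between control libraries, while Snai2 and Zeb1 did overlap (0.0438 to 0.108 and 0.0213 to 0.0944). In the 4 Etv5 shRNA libraries 4 neighbouring pairs of this order overlapped: Twist1 (9.99 to 21.6) with Esrp1 (15.9 to 22.2), Snai1 (4.34 to 11.8) with Grhl2 (2.91 to 9.06), Grhl2 with Zeb2 (0.455 to 2.97), and Snai2 (0.0476 to 0.212) with Zeb1 (0 to 0.103). Without replicate 3, Grhl2 (from 8.43) and Zeb2 no longer overlapped.

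**Figure D1:**
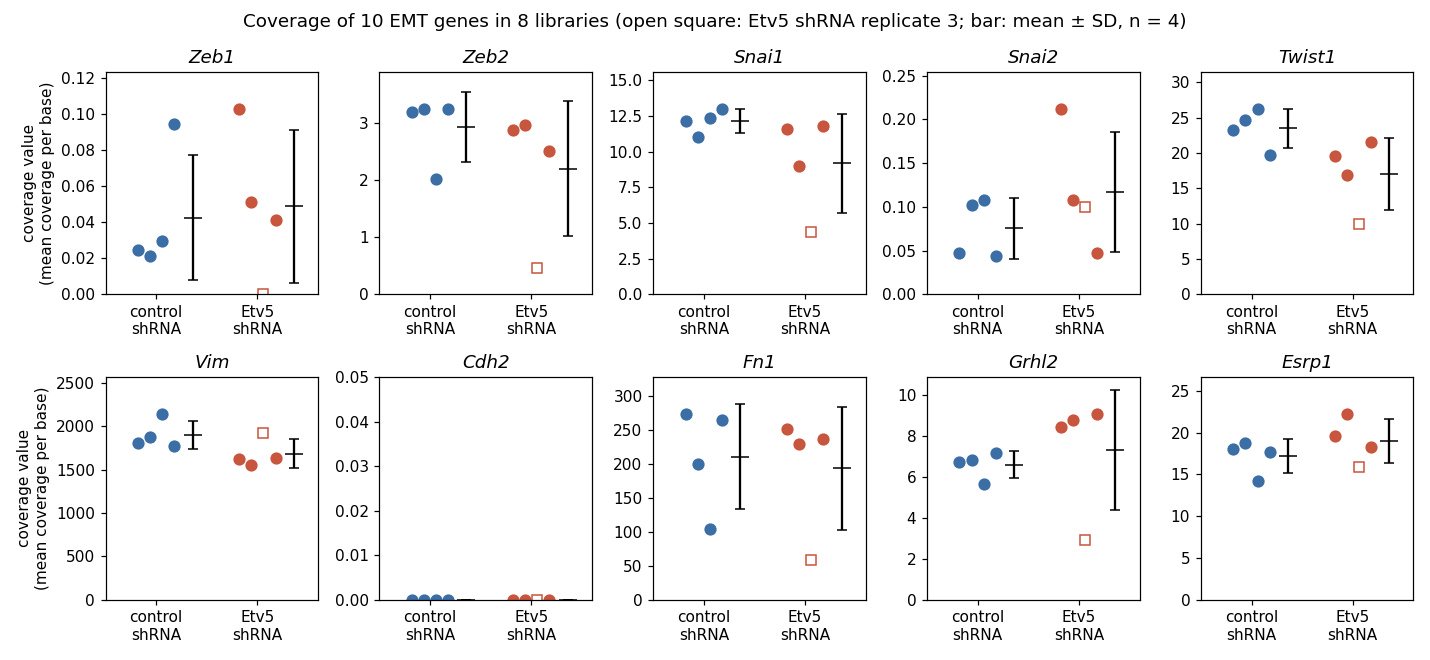
Coverage value (mean coverage per base, linear axes from 0, each panel on its own scale) of the 10 genes in each library; points are single libraries, the open square is Etv5 shRNA replicate 3, and the bar is the mean ± SD over 4 libraries. The open square is the lowest point of its group for Zeb1, Zeb2, Snai1, Twist1, Fn1, Grhl2 and Esrp1, and Cdh2 lies at 0 throughout.

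The promoters of the covered SNAIL and TWIST genes are shown because these factors bind E-boxes and because ETS factors such as ETV5 bind sequences around a GGAA core. Of the 10 genes, 4 matched the RefSeq promoter table on GRCm38.p6, the assembly also called mm10: Vim, Zeb2, Snai1 and Twist1. The 250 bases upstream of each listed start were searched on both strands for the E-box CACCTG (reverse CAGGTG) and for the ETS motif CCGGAAG (reverse CTTCCGG), which do not overlap each other in these windows. Capitals mark a match. The Snai1 window is chr2:167537945-167538194 on the plus strand, and the Twist1 window is chr12:33957421-33957670 on the plus strand.
Snai1: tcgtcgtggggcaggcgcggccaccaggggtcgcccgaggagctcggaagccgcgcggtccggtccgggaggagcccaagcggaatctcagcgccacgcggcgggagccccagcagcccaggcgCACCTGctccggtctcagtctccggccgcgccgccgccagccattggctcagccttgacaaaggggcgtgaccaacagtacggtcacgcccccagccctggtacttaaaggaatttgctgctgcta
Twist1: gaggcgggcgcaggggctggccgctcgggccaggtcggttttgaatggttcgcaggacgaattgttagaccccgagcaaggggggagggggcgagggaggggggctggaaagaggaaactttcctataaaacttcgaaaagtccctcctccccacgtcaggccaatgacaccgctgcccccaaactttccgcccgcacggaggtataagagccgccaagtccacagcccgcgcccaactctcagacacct
The Snai1 window held 1 E-box, which begins 126 bases upstream of the start, and the Twist1 window held none. Neither window, and none of those of Vim and Zeb2, held the ETS motif in these letters. The shorter GGAA core was not searched for, and it occurs in both printed windows. Over all 32851 promoter windows of the same length, 17.2% held the E-box and 6.91% the ETS motif.

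Snai1 encodes the zinc finger repressor SNAIL and sits at 167538195 to 167542814 of chromosome 2 (plus strand) of mm10. Its coverage value was 12.2, 11.0, 12.4 and 13 in control replicates 1 to 4, and 11.6, 9.01, 4.34 and 11.8 in the Etv5 shRNA libraries. The third and second Etv5 shRNA libraries were below all controls, while the other two lay within the control range. The log2 fold change was -0.44 (SE 0.27, 95% interval -1.06 to 0.17) over 8 libraries, with an adjusted p of 0.855 by limma. Over 7 libraries it was -0.16 (95% interval -0.40 to 0.08, adjusted p 0.46 by limma). Snai2, the gene of its relative SLUG on chromosome 16 from 14705852 to 14709385, was between 0.0438 and 0.108 in controls and between 0.0476 and 0.212 with the Etv5 shRNA. Multiplied by its transcript length of 2021 bases, these values amount to between 88.6 and 428 scaled covered bases in a library, so a difference was not detectable at this coverage (exact two-sided permutation p = 0.343 over 70 assignments).

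Twist1, which encodes a basic helix-loop-helix factor, sits at 33957671 to 33959829 of chromosome 12 (plus strand). It was at 23.2, 24.7, 26.2 and 19.7 in controls and at 19.6, 16.9, 9.99 and 21.6 with the Etv5 shRNA. Of the Etv5 shRNA libraries, 3 lay below every control, and replicate 4 lay inside the control range. The log2 fold change was -0.48 (SE 0.229, 95% interval -1.0 to 0.03, adjusted p 0.746 by limma) over 8 libraries, and the exact two-sided permutation p was 0.0571, where 0.0286 is the smallest that 70 assignments allow. Over 7 libraries it was -0.26 (SE 0.118, 95% interval -0.53 to 0.00, adjusted p 0.266 by limma), with means of 23.5 ± 2.79 (SD, n = 4) and 19.4 ± 2.35 (SD, n = 3). Unadjusted p by limma was 0.0638 over 8 libraries and 0.0502 over 7, and the difference did not pass the threshold across all genes in either set. Twist1 was called lower with array quality weights (adjusted p 0.0385 by limma) and in no other alternative run.

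Snai1, Twist1 and Vim deviated in the third Etv5 shRNA library with the opposite sign to the median of their length quartile, and Zeb2, Fn1, Grhl2 and Esrp1 with the same sign. The transcripts of Snai1 and Twist1 are short, at 1621 and 1628 bases, and belong to the quartile of tested genes whose median deviation in that library was 0.52. Snai1 deviated by -1.13 and Twist1 by -0.88 on the log2(value + 1) scale. Their GC contents were 59.8% and 59.3%, in the highest quartile, and genes in the same quartile of both length and GC content had a median deviation of 0.74. In control replicate 3 the 2 genes deviated by 0.03 and 0.22, against a median of 0.32 for their length quartile. Vim, with a transcript of 2193 bases, deviated by 0.26 in the third Etv5 shRNA library, against a median of -0.25 for its length quartile. Esrp1 deviated by -0.31, against -0.66.

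**Figure D2:**
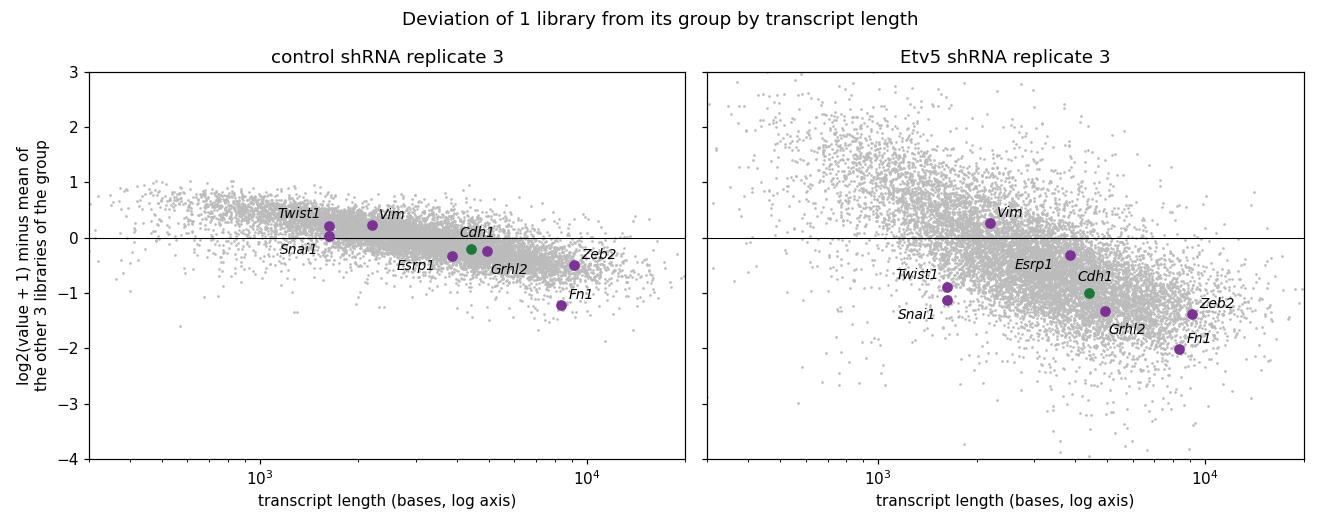
Deviation of 1 library from the mean of the other 3 of its group, on the log2(value + 1) scale, against transcript length in bases (log axis); grey points are tested genes, purple points the 7 tested EMT genes and the green point Cdh1, and genes beyond the axis limits are not drawn. In Etv5 shRNA replicate 3, Zeb2 and Fn1 lie at -1.38 and -2.02 among the long transcripts, and Snai1 and Twist1 lie at -1.13 and -0.88, where the quartile of genes with the shortest transcripts had a median of 0.52.

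Zeb2, a zinc finger and homeodomain repressor gene, sits at 44983632 to 45117395 of chromosome 2 (minus strand). It was at 3.21, 3.25, 2.02 and 3.25 in controls and at 2.89, 2.97, 0.455 and 2.52 with the Etv5 shRNA. The third library was the lowest in both groups, and the other 6 lay between 2.52 and 3.25. The log2 fold change was -0.38 (SE 0.32, adjusted p 0.879 by limma) over 8 libraries and -0.04 (95% interval -0.35 to 0.27, adjusted p 0.899 by limma) over 7. The longest coding transcript has 9124 bases, and the deviation of Zeb2 in the third Etv5 shRNA library, -1.38, stands beside a median of -1.11 for the quartile of genes with the longest transcripts. Annotated exons of the antisense gene Zeb2os share 653 bases with exons of Zeb2. Whether coverage was averaged by strand is not given in the sources used here, so part of the Zeb2 value is uncertain.

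Zeb1, the relative of Zeb2 on chromosome 18 from 5591860 to 5775467, was between 0.0213 and 0.0944 in controls. With the Etv5 shRNA it was at 0.103, 0.0510, 0 and 0.0413. At its transcript length of 5801 bases the highest of these values amounts to 596 scaled covered bases, and a difference between groups was not detectable (exact two-sided permutation p = 0.83). Exons of Gm10125, on the opposite strand, share 198 bases with those of Zeb1. Zeb2 had the higher coverage value of the 2 genes in each of the 8 libraries.

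Vim encodes vimentin, the intermediate filament protein of mesenchymal cells, and sits at 13573927 to 13582826 of chromosome 2 (plus strand). It was at 1811, 1882, 2141 and 1776 in controls and at 1628, 1557, 1928 and 1632 with the Etv5 shRNA. Replicate 3 had the highest value in each group, and the other 3 Etv5 shRNA libraries lay below every control. The log2 fold change was -0.17 (SE 0.197, 95% interval -0.62 to 0.27, adjusted p 0.879 by limma) over 8 libraries. Over 7 libraries the means were 1903 ± 165 (SD, n = 4) and 1606 ± 42.2 (SD, n = 3), with a log2 fold change of -0.24 (95% interval -0.60 to 0.12, adjusted p 0.457 by limma). Permuting these 7 libraries exactly gave a two-sided p of 0.0571, the smallest that 35 assignments allow.

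Fn1 encodes fibronectin, a matrix glycoprotein secreted by mesenchymal cells, and sits at 71585520 to 71653200 of chromosome 1 (minus strand). It was at 274, 201, 105 and 265 in controls and at 252, 229, 58.3 and 236 with the Etv5 shRNA. In each group the third library was the lowest, and the remaining Etv5 shRNA libraries lay inside the control range. The log2 fold change was -0.23 (SE 0.506, 95% interval -1.38 to 0.92, adjusted p 0.902 by limma) over 8 libraries and 0.27 (SE 0.289, 95% interval -0.38 to 0.92, adjusted p 0.643 by limma) over 7. Without Etv5 shRNA replicate 3 the direction thus turned, with no call in either case. The turn did not hold in every setting: over the 12 without that library, the log2 fold change ran from -0.03 to 0.43. At 8315 bases Fn1 is among the long transcripts, and it deviated by -2.02 in the third Etv5 shRNA library and by -1.21 in control replicate 3, where medians for its length quartile were -1.11 and -0.36. Exons of the antisense gene Apol7d share 292 bases with those of Fn1.

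Cdh2, the gene of N-cadherin at 16588877 to 16809246 of chromosome 18, minus strand, was listed at 0 in every library. No fold is given for it. The 5 reference genes Actb, Gapdh, Tbp, Hprt and Ppia were above 0 in every library. The mesenchymal markers were therefore split, with Vim and Fn1 among the 147 most covered genes of the controls and no Cdh2 coverage listed.

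Grhl2 encodes the grainyhead-like factor GRHL2, an activator of epithelial junction genes, and sits at 37233036 to 37363569 of chromosome 15 (plus strand). It was at 6.72, 6.82, 5.65 and 7.17 in controls and at 8.43, 8.80, 2.91 and 9.06 with the Etv5 shRNA. The third Etv5 shRNA library was the lowest of all 8 and the other 3 were above every control. Over 8 libraries the log2 fold change was 0.04 (SE 0.3, 95% interval -0.64 to 0.72, adjusted p 0.971 by limma). Over 7 libraries the means were 6.59 ± 0.656 (SD, n = 4) and 8.76 ± 0.320 (SD, n = 3), a ratio of 1.33, and the log2 fold change was 0.37 (SE 0.096, 95% interval 0.15 to 0.58). This difference did not pass the threshold across all genes, at an adjusted p of 0.0788 by limma. It passed with the length trend also removed (log2 fold change 0.32, adjusted p 0.0215 by limma) or with control replicate 3 also left out (0.31, adjusted p 0.0331). These were the only 2 calls in the 12 settings without the third Etv5 shRNA library, where the adjusted p by limma reached 0.242. At 4947 bases Grhl2 deviated by -1.32 in the third Etv5 shRNA library, and the median for its length quartile was -1.11. Exons of the antisense gene Gm16136 share 169 bases with those of Grhl2.

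Esrp1 encodes an RNA-binding protein that sets epithelial splicing, and sits at 11331933 to 11386783 of chromosome 4 (minus strand). It was at 18.0, 18.7, 14.2 and 17.6 in controls and at 19.5, 22.2, 15.9 and 18.3 with the Etv5 shRNA. The third library was the lowest of each group, and the groups overlapped with or without it. The log2 fold change was 0.14 (SE 0.149, 95% interval -0.20 to 0.48, adjusted p 0.879 by limma) over 8 libraries and 0.22 (SE 0.113, 95% interval -0.04 to 0.47, adjusted p 0.34 by limma) over 7. Exons of Gm26663, on the opposite strand, share 127 bases with those of Esrp1. A table of gene-level coverage does not show which splice forms were made.

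Across the group, none of the 10 genes was called. Of the 10, 7 passed the filter of a coverage value of 0.5 or more in at least 4 libraries, and Zeb1, Snai2 and Cdh2 did not. Over 8 libraries limma called 0 of the 7 at an adjusted p under 0.05, against 0.494% of all 11731 genes tested (0.486% lower and 0.00852% higher), and 0 of the 7 had an unadjusted p under 0.05, against 7.09%. Over 7 libraries limma again called 0, against 3.15% of 11685 genes (2.06% lower and 1.09% higher), and 1, Grhl2, had an unadjusted p under 0.05, against 18.8%. In no member did the groups separate over 8 libraries, where 9.1% of genes did. Over 7 libraries they separated for Vim, lower with the Etv5 shRNA, and for Grhl2, higher, which is 2 of 7 where 20.2% of all genes separated, 10.5% lower and 9.78% higher. The 95% intervals over 7 libraries were narrowest for Grhl2 and widest for Fn1, and those of Zeb2, Snai1, Twist1 and Vim reached down to -0.35, -0.40, -0.53 and -0.60. Missing the threshold does not show that these levels were alike.

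**Figure D3:**
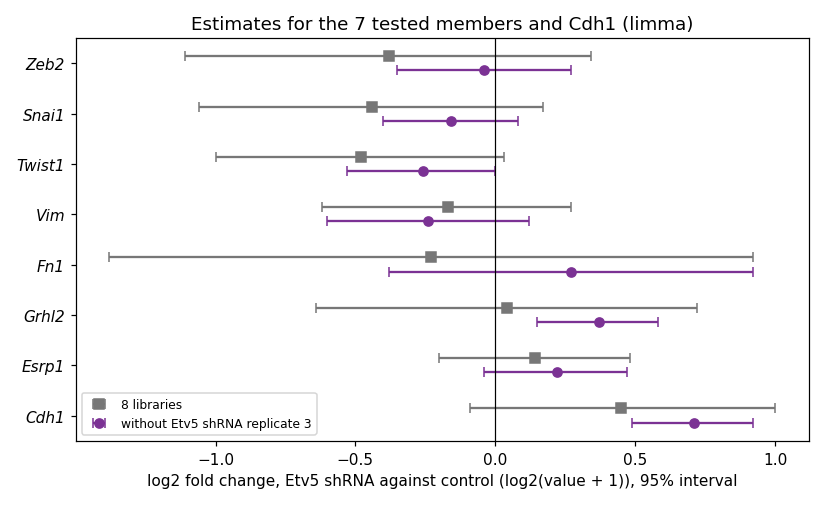
Log2 fold change of Etv5 shRNA against control on the log2(value + 1) scale, with 95% intervals from limma, for the 7 tested genes and Cdh1; grey squares use 8 libraries and purple circles the 7 without Etv5 shRNA replicate 3. Without that library Grhl2 is at 0.37 and Cdh1 at 0.71 with intervals above 0, and the other intervals reach or span 0.

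E-cadherin, the junction protein whose loss is a hallmark of EMT and whose gene Cdh1 is repressed by SNAIL and ZEB factors, was examined beside the 10. Cdh1, on chromosome 8 from 106603351 to 106670246, was at 40.9, 37.1, 34.3 and 41.8 in controls and at 65.5, 64.4, 31.0 and 60.1 with the Etv5 shRNA. Again the third Etv5 shRNA library was the lowest of all, and the other 3 were above every control. Over 8 libraries Cdh1 was not called (log2 fold change 0.45, SE 0.239, adjusted p 0.806 by limma). Over 7 libraries it rose 1.64-fold, from 38.5 ± 3.49 (SD, n = 4) to 63.3 ± 2.87 (SD, n = 3), with a log2 fold change of 0.71 (SE 0.0937, adjusted p 0.00449 by limma). The call over 7 libraries held in all 12 settings without the third Etv5 shRNA library (adjusted p 0.000216 to 0.0419 by limma), which share libraries with each other. Over 8 libraries Cdh1 was called with the length trend removed (adjusted p 0.00911 by limma). The exact two-sided permutation p for Cdh1 was 0.143 over 8 libraries. Over 7 libraries it was 0.0571, the smallest that 35 assignments allow.

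The list of 25 epithelial genes that EMT represses, among them Cdh1, held 24 tested genes. Over 8 libraries none was called, and over 7 libraries 1, Cdh1, was higher, none was lower and 23 were not called. Its median log2 fold change was 0.04 over 7 libraries and -0.01 over 8, beside 0.00 and -0.11 for all genes. Epcam, an epithelial adhesion gene, was between 91.6 and 124 in controls and between 91.8 and 106 with the Etv5 shRNA (log2 fold change -0.07 and adjusted p 0.901 by limma over 8 libraries, -0.04 and 0.897 over 7, with a 95% interval of -0.30 to 0.23). The call of Cdh1 was therefore not shared by the other genes of the list.

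Other regulators of the epithelial state were 12 genes with 8 tested. Over 8 libraries 1 fell and none rose, and over 7 libraries 2 fell and none rose. Of all genes tested, 0.486% were called lower over 8 libraries and 2.06% over 7. The gene that fell over 8 libraries was Ehf, an ETS factor of epithelial cells. It was at 2.71, 2.01, 2.17 and 2.60 in controls and at 0.165, 0.107, 0.0372 and 0.12 with the Etv5 shRNA, with a log2 fold change of -1.60 (SE 0.106, adjusted p 0.000377 by limma) over 8 libraries and -1.57 (adjusted p 4.32e-05) over 7. The log2(value + 1) scale understates changes of low genes. The control mean of Ehf was 22.1 times its Etv5 shRNA mean over 8 libraries and 18.2 times over 7. These ratios rest on Etv5 shRNA values near 0. Ehf passed the filter through its control libraries alone, so a gene with this pattern had to differ. Elf3, another epithelial ETS factor gene, was at 7.40, 8.28, 11.7 and 9.10 in controls and at 5.81, 5.10, 6.99 and 5.76 with the Etv5 shRNA. Its groups did not overlap, and it was called over 7 libraries (log2 fold change -0.61, SE 0.136, adjusted p 0.0448 by limma) and not over 8 (adjusted p 0.412). The call over 7 libraries was lost when control replicate 2 or 4 or any further Etv5 shRNA library was left out, under median-of-ratios scaling (0.0511) and with the replicate number as a block (0.0552), and the adjusted p over settings without the third library ran from 0.0114 to 0.205.

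Ovol1, another regulator gene on the epithelial side, was at 1.11, 0.952, 0.954 and 1.03 in controls and at 1.67, 1.33, 1.02 and 1.58 with the Etv5 shRNA. Its adjusted p by limma was 0.737 over 8 libraries and 0.0893 over 7. Its relative Ovol2 was between 0.669 and 1.46 in controls and between 1.10 and 1.96 with the Etv5 shRNA (adjusted p by limma 0.785 over 8 libraries and 0.414 over 7). Esrp2, the relative of Esrp1, was at 4.23, 3.84, 2.47 and 4.38 in controls and at 4.39, 4.76, 0.580 and 4.79 with the Etv5 shRNA (adjusted p by limma 0.906 over 8 libraries and 0.359 over 7). Like Grhl2, Esrp2 was lowest of all in the third Etv5 shRNA library and above every control in the other 3. The direction of Esrp2 turned with that library, from a log2 fold change of -0.18 with it to 0.27 without it, with no call either way.

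Of 17 other EMT transcription factor genes, among them Twist2, Foxc2 and Sox9, 12 were tested and limma called 0, over 8 libraries as over 7. Their log2 fold changes over 7 libraries had a median of -0.22 and ran from -0.60 to 0.24, with 9 of 12 below 0. Both ends of that range were Id genes, Id3 at -0.60 and Id2 at 0.24. For all genes the median was 0.00, with 5894 of 11685 below 0. Over 8 libraries the median was -0.32, beside -0.11 for all genes. Of 24 other mesenchymal effector genes 15 were tested and limma called 0 as well, with a median of -0.12 over 8 libraries and -0.04 over 7. Cd44, a hyaluronan receptor gene often used as a mesenchymal or stem cell marker, was between 66.3 and 77.7 in controls and at 72.5, 72.1, 31.2 and 65.6 with the Etv5 shRNA (log2 fold change -0.32 and adjusted p 0.879 by limma over 8 libraries, -0.04 and 0.861 over 7, with a 95% interval of -0.24 to 0.17). Cdh11, a cadherin gene of mesenchymal cells, was at most 0.000969 in any library.

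**Figure D4:**
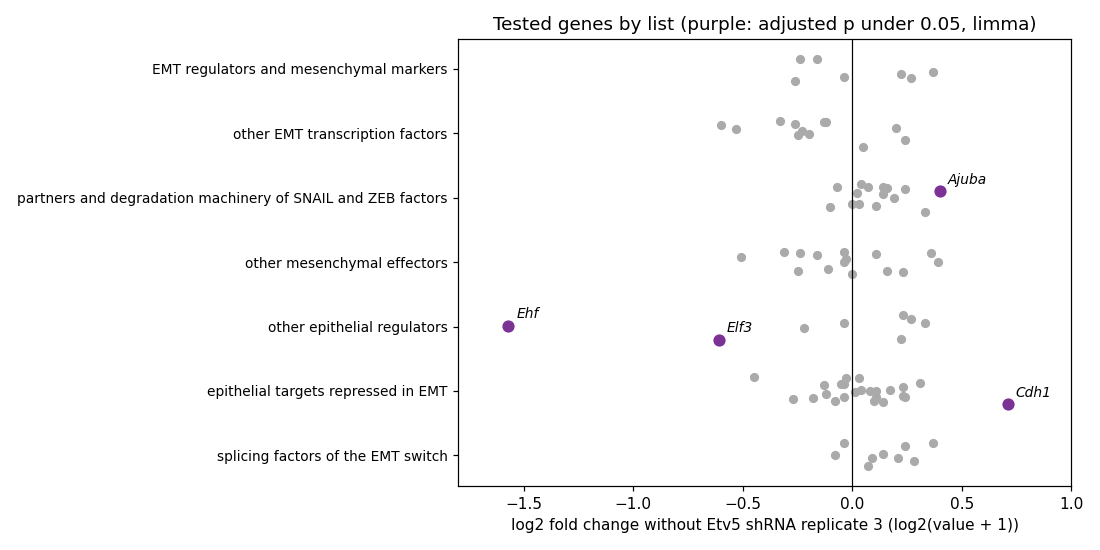
Log2 fold change over the 7 libraries without Etv5 shRNA replicate 3 for each tested gene of 7 lists, on the log2(value + 1) scale; purple points have an adjusted p under 0.05 by limma. Ehf at -1.57, Elf3 at -0.61, Ajuba at 0.40 and Cdh1 at 0.71 are the called genes, and none lies in the row of the 10 EMT genes.

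Because fibroblasts also make vimentin, fibronectin and the EMT factors, markers of other cell types were looked at. In bulk RNA, fewer cells of a type and less RNA per cell cannot be told apart. The defining markers of mammary carcinoma cells were high, with Krt8 between 344 and 856 and Krt18 between 545 and 1534, while Krt5 was at most 0.00564. The summed level of the 7 markers was between 1270 and 1730 in controls and between 1280 and 3050 with the Etv5 shRNA, the highest being the third library. Of 10 fibroblast markers, Dcn and Lum were at 0 in every library and Col1a1, Col1a2 and Col3a1 were at most 0.357, 0.0540 and 0.0457. The summed level of the 10 was between 3.54 and 4.50 in controls and between 1.2 and 4.16 with the Etv5 shRNA, most of it from Pdgfra and Postn. Pdgfra, a growth factor receptor gene, was at 3.43, 3.54, 2.54 and 3.47 in controls and at 2.15, 1.92, 0.519 and 1.91 with the Etv5 shRNA, and it was called lower over 7 libraries (log2 fold change -0.50, SE 0.111, adjusted p 0.0446 by limma). Postn, the gene of the matrix protein periostin, was at 0.908, 0.838, 0.789 and 0.781 in controls and at 1.57, 1.86, 0.510 and 1.47 with the Etv5 shRNA, and it was called higher over 7 libraries (0.52, SE 0.0906, adjusted p 0.0166 by limma). Neither was called over 8 libraries (adjusted p 0.435 and 0.837 by limma). The 2 thus moved in opposite directions. Both had low values, and the log2(value + 1) scale understates changes of low genes. With 1 more library left out, the call of Pdgfra held only without control replicate 3 (0.00315), and that of Postn was lost without control replicate 2 or Etv5 shRNA replicate 1 or 2 and with the replicate number as a block (0.0508), the adjusted p by limma reaching 0.189 and 0.0947 over the settings run. Leukocyte and endothelial lists of 10 and 6 genes summed to at most 4.6 and 0.132 in a library. Nearly all of the former was Cd68, at 2.89 to 4.43, and the pan-leukocyte marker Ptprc was at most 0.0460. The endothelial receptor gene Tie1 reached 0.0486 in a control and 0.0207 in an Etv5 shRNA library. In the Etv5 shRNA library with the endothelial sum of 0.132, most of that sum came from other genes of the list.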

How the data were processed

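RNA of 4T1 cells was sequenced in 8 libraries, 4 per group. Total RNA went into Illumina TruSeq libraries run on a NovaSeq instrument, per the labels' protocols. STAR 2.7.10a and the build mm10 are named in the submitters' processing notes. The unit of the deposited table is a signal: its column names, per the file headers, are those of bedGraph coverage tracks, 1 per library. From the values it was read as mean coverage per base scaled to depth, since value times transcript length summed to between 663 and 702 megabases in every library. How the authors scaled and averaged the signal, and over which annotation, is not stated in what was available. Read depth is unknown, so no counting interval is given.

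Titles gave the groups and replicate numbers, and library names gave the columns. Genes had to reach 0.5 in 4 or more libraries. They were tested on log2(value + 1), which understates changes of low genes, with limma 3.58.1 in R 4.3.3, using an intensity trend and no covariate. Adjustment was by Benjamini-Hochberg over all genes tested, with calls at an adjusted p under 0.05. Exact two-sided permutation tests of single genes used scipy 1.17.1. The fit was tested on simulated data with no deviant library and no length trend, so that test does not cover either. Transcript lengths (longest coding transcript), positions and overlaps came from GENCODE mouse release M21 on mm10. Between 0 and 2.42% of the 50-base stretches of a member's longest coding transcript also occur in transcripts of other genes.

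Members and lists were chosen with earlier results of these data known. The rule for named genes took the 10 members, Etv5, Cdh1, Epcam, Ovol1, Ovol2, Esrp2 and Cd44 whatever their result, up to 4 called genes of each list in each direction, and the most covered gene of each list of other cell types. Twist2, Foxc2, Sox9, Id2, Id3, Cdh11, Rbfox2, Qk, the keratins and markers at or near 0 are named outside it, as examples or as ends of a range. Alternatives were 2 other scalings, 2 other filters, a pseudocount of 0.1, the replicate block, removal of the length trend by lowess with a span of 0.3, array quality weights and leaving out libraries. Combining the omission of Etv5 shRNA replicate 3 with the length trend, the pseudocount or the block was added after seeing the data.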

Additional observations from a re-analysis of the deposited data

Results flagged for a closer look

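For the members and other named genes, the gap between an extreme library and its nearest neighbour was divided by the range of its group of 4 and set against Dixon's 95% critical value. Of 42 groups, 10 passed, where chance would give about 1 in 20, or 2.1, if the groups were independent. They share the same libraries, and some genes were included because they were called without Etv5 shRNA replicate 3. The 2.1 is therefore no chance level for this set. In 7 of the 10 the library was Etv5 shRNA replicate 3. Among the members, this library was low for Fn1, at 58.3 (ratio 0.884), and for Grhl2, at 2.91 (ratio 0.896). Outside the members it was low for Cdh1 at 31.0, for Ajuba at 12.2, for Esrp2 at 0.580, for Cd44 at 31.2 and for Pdgfra at 0.519. Control replicate 3 was low for Zeb2, at 2.02 (ratio 0.962, the highest of the 10), and for Pdgfra, at 2.54. Zeb1 was high in control replicate 4, at 0.0944, a level near 0. Replicate 3 of both groups deviated with transcript length, and the part of that trend in these gaps was not tested gene by gene.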

How the results depend on the processing

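Counts over all genes moved strongly with the settings, while calls among the 10 genes stayed few. Genes called lower numbered 57, and 113 with the length trend removed, 37 with the pseudocount at 0.1 and 1670 with array quality weights, whose estimation stopped before reaching its convergence tolerance. Genes called higher numbered 1, and 7 with median-of-ratios scaling, 8 with quantile normalisation, 3 with no filter, 29 with the length trend removed, 0 with the pseudocount at 0.1 and 1513 with array quality weights. Leaving out libraries gave 20 to 608 lower and 0 to 416 higher. Without Etv5 shRNA replicate 3, lower and higher genes numbered 244 and 130 with median-of-ratios scaling, 572 and 522 with the length trend removed, 236 and 118 with a pseudocount of 0.1, and 212 and 80 with the replicate block. Of the 10 genes, 0 were called, 2 with array quality weights (Twist1 at -0.23 and Grhl2 at 0.28), 1 without that library and with the length trend removed (Grhl2), and 0 to 1 on leaving out libraries.

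Some log2 fold changes turned sign, and the cause was not tested. With array quality weights Fn1 was at 0.11, Epcam at 0.04 and Esrp2 at 0.12, and Epcam was at 0.10 with median-of-ratios scaling, which moved the median of all genes from -0.11 to 0.02. Without Etv5 shRNA replicate 3, Fn1 was at 0.28, 0.16 and 0.27 with median-of-ratios scaling, the length trend removed and a pseudocount of 0.1. Esrp2 was then at 0.28, 0.26, 0.34 and, with the block, 0.13, and Epcam was at 0.00 with the length trend removed and 0.06 with the block. On leaving out libraries, Zeb2 ran from -0.52 to 0.01, Fn1 from -0.54 to 0.43, Grhl2 from -0.09 to 0.40, Ajuba from -0.12 to 0.43, Epcam from -0.12 to 0.06, Esrp2 from -0.35 to 0.34 and Cd44 from -0.43 to 0.01. Snai1, Twist1, Vim and Esrp1 did not turn sign in the 27 alternatives run. At their smallest, their log2 fold changes were -0.05, -0.17, -0.00 and 0.05, so the difference in Vim vanished in some setting. Ovol1 and Ovol2 were called higher with array quality weights (0.38 and 0.41), and Ovol1 also without Etv5 shRNA replicate 3 and with the length trend removed (0.34).

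Replicate numbers are shared between groups. Same-numbered libraries correlated in their deviations at 0.549, 0.0924, 0.794 and 0.51. Controls 1 and 3 correlated best with their own number, and controls 2 and 4 with Etv5 shRNA replicates 4 and 2. The labels give no pairing, and these correlations do not settle whether the libraries were paired. Ehf in 8 alternatives and Postn in 1 fell under the filter and have no value. The block over 8 libraries gave 50 lower and 1 higher, with 0 of the 10 genes called. A group left with 2 libraries relies on the spread of the other group. Without read counts, differences in Zeb1 and Snai2 cannot be resolved.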

Other observations

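The 15 partners and degradation factors of SNAIL and ZEB proteins (corepressors such as CtBP and the LSD1 complex, and the kinases and ubiquitin ligases that mark SNAIL for destruction) were all tested. Over 8 libraries limma called 0 of them, and over 7 libraries 1 was higher and 14 were not called. Of all genes tested over 7 libraries, 1.09% were called higher. The median log2 fold change of the 15 was -0.09 over 8 libraries and 0.11 over 7, beside -0.11 and 0.00 for all genes. The higher gene was Ajuba, a LIM protein gene whose product binds SNAIL at its target genes. It was at 29.4, 27.3, 24.7 and 28.0 in controls and at 36.0, 35.3, 12.2 and 37.6 with the Etv5 shRNA (log2 fold change 0.02 and adjusted p 0.982 by limma over 8 libraries, 0.40 and 0.0387 over 7). Without a further library the call held only without control replicate 3 (adjusted p 0.0122 by limma), and over the settings run the adjusted p without the third Etv5 shRNA library reached 0.177.

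The 9 genes of splicing factors that act with or against ESRP proteins in EMT, among them Rbfox2 and Qk, were all tested and limma called 0 over 8 and over 7 libraries. Their log2 fold changes over 7 libraries ran from -0.08 to 0.37 with a median of 0.14, 7 of 9 being above 0, beside 5791 of 11685 for all genes. Over 8 libraries the median was -0.10, with 2 of 9 above 0, beside a median of -0.11 and 3642 of 11731 above 0 for all genes.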
